A study of Mus musculus with 6 samples.

Results

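Pithd1, Efhd2, Slc2a5, Vamp3, Gnb1 and Mxra8 are 6 genes of the distal part of mouse chromosome 4 whose signals differed between the striatum of mice without PGC-1alpha and that of wild-type mice. They were chosen by the KO against WT difference of their array signals, the same contrast that is described here, so their differences between the genotypes are given without a test. All probe sets that the platform annotation assigns to exactly 1 of these symbols were taken, which gave 15 of the 45101 probe sets on the array and 6 of 18194 named genes. Pithd1 had 3 of them, Efhd2 2, Slc2a5 1, Vamp3 5, Gnb1 3 and Mxra8 1. The samples were striata of 3 PGC-1a null mice (PGC-1a-/-, knockout, KO) and of 3 wild-type littermates (PGC-1a+/+, WT), all females aged 6 months and bred from heterozygous founders. Each mouse was hybridised to 1 Affymetrix array, whose signal is an intensity per probe set without a length scale, so levels of different probe sets are not compared. No further allele, agent or treatment is named for either group, and neither the strain background nor the number of backcrosses is given in the sources used here. The label of KO 3 reads cytoplasmic RNA and the other 5 read total RNA, so values without KO 3 are given where they bear on a result. In whole striatum, fewer cells of a type and less RNA per cell cannot be told apart.

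Gnb1 encodes a beta subunit of heterotrimeric G proteins, which with a gamma subunit carries signals from receptors such as those for dopamine to channels and adenylyl cyclase. Vamp3, or cellubrevin, is a vesicle SNARE that pairs with syntaxins and SNAP proteins to fuse recycling endosomes with other membranes. Efhd2, or swiprosin-1, is an EF-hand protein that binds calcium and actin filaments, and Slc2a5 is the fructose transporter GLUT5, which in brain is known from microglia. Mxra8 is a membrane protein with immunoglobulin domains that serves some alphaviruses as a receptor, and Pithd1 is a protein named for its PITH domain, which it shares with the proteasome-associated thioredoxin Txnl1. PGC-1alpha, the product of Ppargc1a, is a coactivator that works through estrogen-related receptors and nuclear respiratory factors, among others.

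Promoters of the 6 genes were searched for binding motifs of these factors, and 5 genes had an entry in the RefSeq promoter table of build GRCm38.p6. The estrogen-related receptor motif TCAAGGTCA, and its wider form TNAAGGTCA, which includes it, had 0 matches on either strand in the 250 bases before the tabulated start of Pithd1, Efhd2, Slc2a5, Gnb1 or Mxra8. Of 32851 promoter windows of that length, 0.387% hold the first and 1.14% the second. The palindromic motif of nuclear respiratory factor 1, searched in its exact form only, had 1 match, in Pithd1, and 0.782% of all promoter windows hold it. No wider form of this motif was searched, so near matches were not counted. The Gnb1 window printed below holds such a near match, which differs from the palindrome in 1 base. The count therefore does not show that Gnb1 or the other genes lack a site for this factor. The GC box GGGCGG, a motif added after the data were seen, had 1 match in Pithd1, 3 each in Efhd2, Slc2a5 and Gnb1, and 0 in Mxra8, and 32.7% of all windows hold it. One of the Gnb1 matches lies past the outermost annotated start of the gene and is not printed. Shown are the promoter with the exact nuclear respiratory factor 1 palindrome and those of the pair of genes with higher signal in KO mice. Sequences run 5′ to 3′ on the gene's strand and end at the start or, for Gnb1, at the outermost annotated start, with matches to the nuclear respiratory factor 1 motif and to GGGCGG on either strand in capitals. Pithd1 lies on the minus strand (chr4:135987245-135987494) and Gnb1 (chr4:155491111-155491299) and Mxra8 (chr4:155839430-155839679) on the plus strand.
Pithd1: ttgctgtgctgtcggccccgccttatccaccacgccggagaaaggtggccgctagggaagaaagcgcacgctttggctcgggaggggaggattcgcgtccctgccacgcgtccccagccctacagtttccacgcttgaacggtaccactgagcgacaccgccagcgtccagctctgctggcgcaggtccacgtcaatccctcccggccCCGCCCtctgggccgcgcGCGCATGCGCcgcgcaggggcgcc
Gnb1: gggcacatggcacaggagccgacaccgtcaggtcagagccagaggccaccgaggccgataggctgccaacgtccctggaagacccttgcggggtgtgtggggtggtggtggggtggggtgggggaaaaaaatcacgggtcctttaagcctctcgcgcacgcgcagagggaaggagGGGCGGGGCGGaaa
Mxra8: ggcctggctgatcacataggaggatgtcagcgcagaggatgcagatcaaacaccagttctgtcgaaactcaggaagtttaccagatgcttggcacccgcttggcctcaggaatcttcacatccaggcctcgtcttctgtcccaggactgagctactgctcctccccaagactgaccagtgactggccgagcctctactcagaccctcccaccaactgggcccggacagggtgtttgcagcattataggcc
The Gnb1 and Mxra8 windows, which belong to genes with the same direction of difference, share none of the motifs in the forms searched. A match or its absence here is a property of the letters only.

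The arrays had median signals from 43.1 to 47.3. Ppargc1a, the deleted gene, read 89.5, 87.9 and 68.4 in the KO mice and 397, 305 and 370.3 in the WT mice by the probe set with the largest difference (-1.93 on the log2 scale, SE 0.14, limma adjusted p = 3.0e-05). Differences below are KO minus WT on log2(signal + 16), with the standard error (SE) of a limma fit over the 27022 probe sets above the 40th percentile of mean signal. Over all tested probe sets the median difference was -0.0046. A probe set is called at a Benjamini-Hochberg adjusted p under 0.05, as 127 of the 27022 were, or 0.470%. Medium spiny neuron markers were abundant in both groups, for instance Drd1 (1966 ± 118 in KO, 1891 ± 177 in WT, SD, n = 3) and Pde10a (6284 ± 299 and 6009 ± 438), and of the 10 measured none was called by limma (1 at an unadjusted p under 0.05).

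Of the 15 probe sets of the 6 genes, 13 had enough mean signal over the 6 mice to be tested. Among them, Pithd1 1437233_x_at and Slc2a5 1416639_at passed the filter only through the WT mice, with KO means of 12.8 and 14.0. The probe sets left out were Pithd1 1455974_at, with signals from 0.8 to 4.6, and Gnb1 1425908_at, with signals from 1 to 17.3, which lie below the filter signal of 26.8 in every mouse. Of the 13, 7 were called, 3 higher and 4 lower, beside 0.178% called higher and 0.292% called lower over all probe sets. These calls are what the genes were listed for, and several were lost without 1 mouse or under another setting. The Vamp3, Efhd2 and Gnb1 1417432_a_at calls held without any 1 mouse. That of Gnb1 1454696_at was lost without KO 1 or WT 2, that of Slc2a5 without KO 1, KO 3, WT 2 or WT 3, that of Mxra8 without any mouse but WT 1, and that of Pithd1 without any but KO 2. Without a filter those 4 were lost, with an offset of 1 Slc2a5, Mxra8 and Pithd1, with robust estimation Efhd2 and Gnb1 1454696_at, with a filter at the 60th percentile Slc2a5 and Pithd1, without the intensity trend all but Vamp3, and with a plain equal-variance test all 7. KO and WT mice did not overlap for 9 of the 13, against 14.4% of all tested probe sets. Among the 13, the smallest called difference relative to its SE was that of Mxra8, 5.19 times the SE, and the largest not called was that of Efhd2 1431339_a_at, 2.66 times the SE. The name of an Affymetrix probe set tells how specific its probes are: _at marks probes for 1 transcript, _a_at probes shared by transcripts of 1 gene, _s_at probes shared by several transcripts, and _x_at some probes that may also match other sequences.

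**Figure D1:**
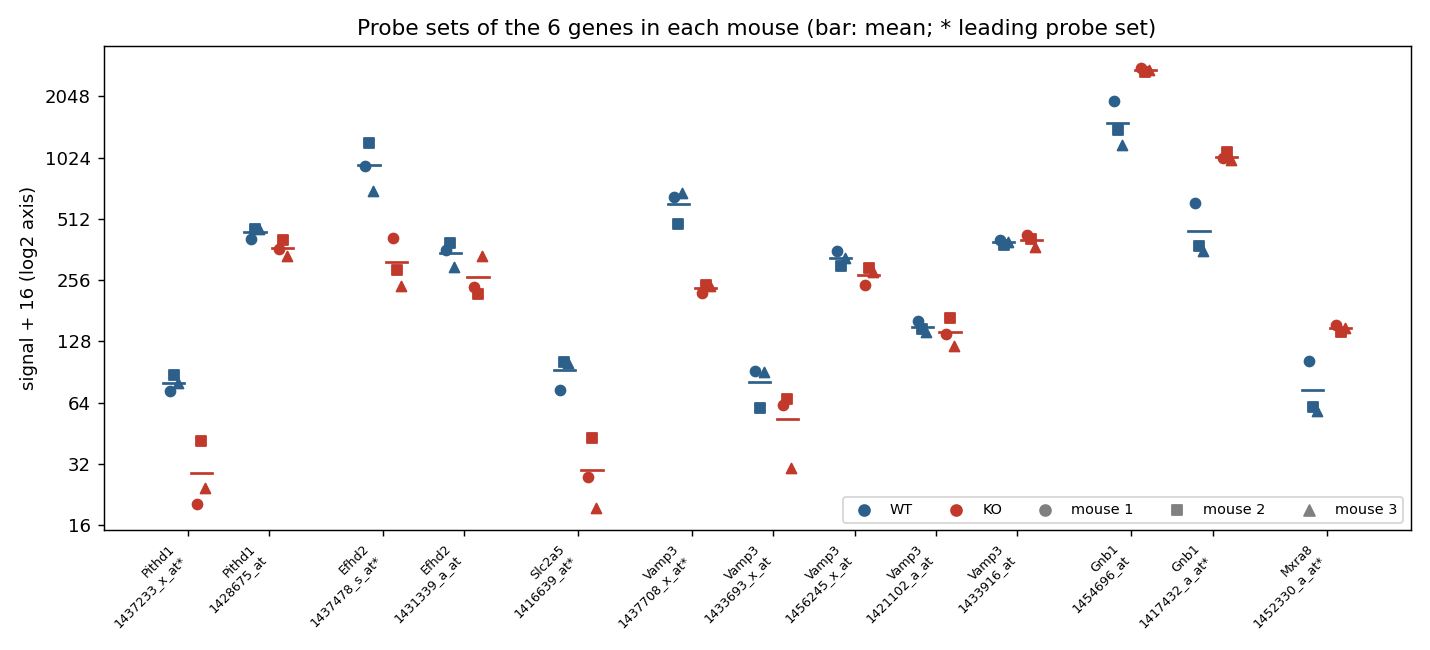
Signal plus 16 on a log2 axis for the 13 tested probe sets of the 6 genes, with WT in blue, KO in red, a symbol for each mouse and a bar at the group mean. Both Gnb1 probe sets and the Mxra8 probe set are higher in all KO mice, while Vamp3, Efhd2 and Pithd1 each have a leading probe set lower in KO (-1.36, -1.60 and -1.55) beside others with smaller differences.

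Gnb1, the G protein subunit, read higher in all KO mice by both of its tested probe sets. Probe set 1417432_a_at read 997.2, 1070.8 and 980.9 in KO mice 1 to 3 and 593.2, 360.4 and 338.4 in WT mice 1 to 3. The KO mice were close to each other (1016 ± 47.9, SD, n = 3) and every one exceeded the highest WT mouse (431 ± 141). The difference was 1.25 (SE 0.16), 2.38-fold on the signal + 16 scale. Probe set 1454696_at read 2805.3, 2689.5 and 2726.7 in KO and 1930.1, 1386 and 1168.1 in WT. Again the groups did not overlap, with a difference of 0.90 (SE 0.14), 1.86-fold. Gnb1 is the only one of the 4 genes with more than 1 tested probe set for which all tested probe sets were called, and the second of these calls is the one lost without KO 1, WT 2 or the filter.

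WT 1 was the highest WT mouse in both Gnb1 probe sets. Between the mean of the other two WT mice and the KO mean, on the log2 scale, it lay 49.3% of the way for 1417432_a_at and 54.2% for 1454696_at. Without WT 1 the leading difference was 1.5, and without KO 3 it was 1.28.

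Mxra8, the membrane receptor protein, has 1 probe set, 1452330_a_at, which read 138.2, 126.8 and 133 in KO and 86.5, 45.3 and 42.4 in WT. All KO mice were above all WT mice, and the KO mice varied little (133 ± 5.71 against 58.1 ± 24.7 in WT). The difference was 1.05 (SE 0.20), 2.08-fold. WT 1 again stood above the other two WT mice, 59.2% of the way to the KO mean. The difference was 1.31 without WT 1 and 1.05 without KO 3, where its call was lost. With a single probe set there is no second measurement of this gene on the array.

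The Gnb1 and Mxra8 signals thus had the same order of groups and the same exceptional WT mouse, and over the 6 mice they correlated at a Pearson r of 0.991 (1417432_a_at) and 0.993 (1454696_at with Mxra8). For 1417432_a_at the genes most alike by their brightest tested probe set were Ppp1r3d (0.996), Vgf (0.994) and Mxra8, and for Mxra8 they were Gnb1, Vgf (0.992) and Prr18 (0.991). These are the highest of all tested genes over only 6 arrays that share the genotype difference, and are given as a description. Leading probe sets of the other listed genes reached values of similar size with genes of other chromosomes. Efhd2 did so with Ldhb (0.998), Pithd1 with Lmf1 (0.994), Slc2a5 with Trub1 (0.992) and Vamp3 with Hmgcs1 (0.991). In the order of tested genes, 11 lie between Gnb1 and Mxra8, and 0 of these had a called probe set in limma. Of all tested genes 0.675% had one, so 0 of 11 is near the background.

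**Figure D2:**
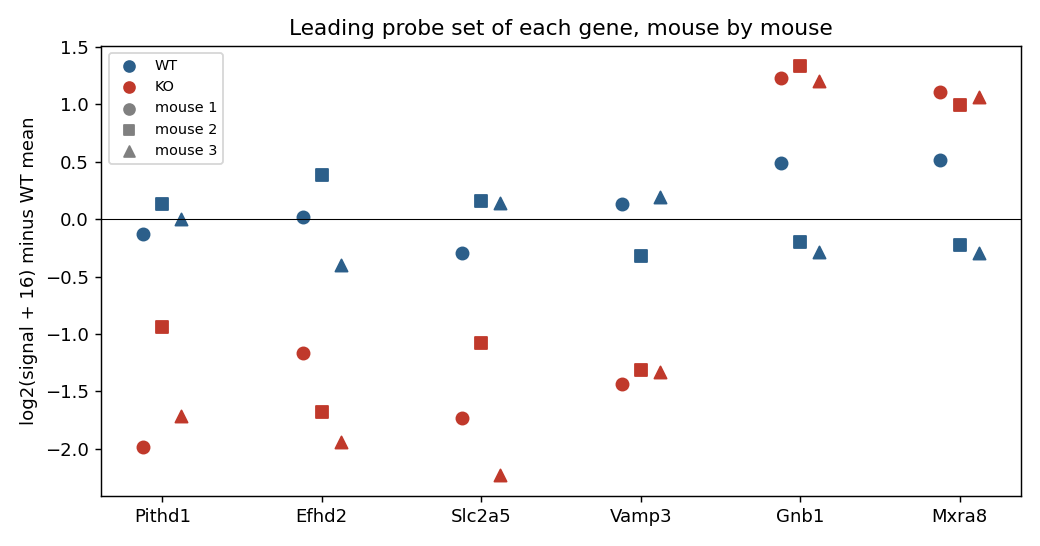
Log2(signal + 16) minus the WT mean for the leading probe set of each gene, the one with the largest difference, with a symbol for each mouse. WT 1 (blue circle) lies between the groups for Gnb1 (0.49) and Mxra8 (0.52) but not for Vamp3 (0.13).

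Vamp3, the endosomal SNARE, differed most by 1 of its 5 tested probe sets, and the other 4 ran from -0.66 to 0.035. Probe set 1437708_x_at read 205.3, 226 and 223.4 in KO and 642.4, 465 and 670.2 in WT. The groups were far apart and the KO mice nearly equal (218 ± 11.3 against 593 ± 111), a difference of -1.36 (SE 0.13), or 2.57-fold lower. It was the difference among the 6 genes that was largest relative to its SE, 10.7 times. Without KO 3 it was -1.38. Probe set 1433916_at read 411.4, 392.9 and 355.6 in KO and 386.3, 366.6 and 376.7 in WT, overlapping, with a difference of 0.035 (SE 0.091). Probe set 1421102_a_at read 123.3, 150.6 and 104.9 in KO and 145.7, 131.3 and 126.5 in WT, also overlapping (difference -0.092, SE 0.14). Both of these changed sign when single mice were left out, from -0.0098 to 0.091 for the first and from -0.21 to 0.020 for the second. Thus neither of the Vamp3 probe sets without an _x_at name separated the genotypes.

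The other two _x_at probe sets of Vamp3 lay between. Probe set 1456245_x_at read 227.7, 276.1 and 264.9 in KO and 338.3, 284.6 and 311.6 in WT, where the lowest WT mouse was only just above the highest KO mouse (difference -0.27, SE 0.11). Probe set 1433693_x_at read 46.4, 50.7 and 14.7 in KO and 75.3, 44.2 and 75 in WT, overlapping (difference -0.66, SE 0.29). Without KO 3, its lowest mouse, that difference was -0.30. The 5 probe sets spanned 1.40 on the log2 scale, from a 2.57-fold lower signal to 1.02-fold.

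Efhd2, the calcium-binding actin regulator, has 2 probe sets that were both lower in KO on average, by unequal amounts. Probe set 1437478_s_at read 395.6, 271.6 and 224.5 in KO and 919.5, 1189 and 682.5 in WT. The mice varied within each group (297 ± 88.4 and 930 ± 253) but the groups stayed apart, with a difference of -1.60 (SE 0.20), or 3.03-fold lower. Without KO 3 this difference was -1.42. Probe set 1431339_a_at read 220.4, 203.8 and 321 in KO and 342.5, 372 and 281.7 in WT, and KO 3 was above WT 3. Its difference was -0.41 (SE 0.16), and -0.60 without KO 3. In 1437478_s_at KO 3 was the lowest KO mouse and in 1431339_a_at the highest, so the 2 probe sets did not rank the KO mice alike.

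Slc2a5, the fructose transporter, has 1 probe set, 1416639_at, which read 11.5, 27.1 and 3.5 in KO and 58.3, 85.9 and 84.3 in WT. All KO mice were below all WT mice, and 2 of the 3 KO signals lay below the filter signal of 26.8. The difference was -1.68 (SE 0.28), 3.20-fold lower, and because the KO signals are so small it was -2.71 with an offset of 1 and -0.85 with an offset of 64. Without KO 3 it was -1.41. Like Mxra8, this gene has no second probe set to compare.

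Microglia markers were measured as the cell type in which Slc2a5 is known. Of the 11 with enough signal, 7 were higher and 4 lower in KO, with a median of 0.14 beside -0.0069 over all genes. The summed signal of the list was 4962 to 5499 in KO and 4782 to 5200 in WT. None was called by limma (3 at an unadjusted p under 0.05), Csf1r reading 1848 ± 112 in KO and 1758 ± 161 in WT (SD, n = 3). Those 3 were C1qb (0.25) and C1qc (0.35), higher in KO, and Aif1 (-0.64), lower. C1qb and C1qc also lie on chromosome 4, among the tested genes near Pithd1. C1qa of the same list gave -0.060 (SE 0.086).

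Pithd1 differed by 1 probe set and little by the other tested one. Probe set 1437233_x_at read 4.3, 25.7 and 8.4 in KO and 57.1, 71.9 and 63.9 in WT. All KO signals were below the filter signal of 26.8 and all WT signals above it, with a difference of -1.55 (SE 0.27), 2.92-fold lower. This difference was -2.56 with an offset of 1, -0.75 with an offset of 64 and -1.46 without KO 3. Probe set 1428675_at read 347.5, 388.7 and 320.5 in KO and 390.7, 440.9 and 439.1 in WT. There the highest KO mouse came within a few units of the lowest WT mouse, and the difference was -0.26 (SE 0.099), 1.20-fold lower. The leading probe sets of Pithd1 and Vamp3 thus share the _x_at name, and that of Efhd2 is an _s_at set.

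**Figure D3:**
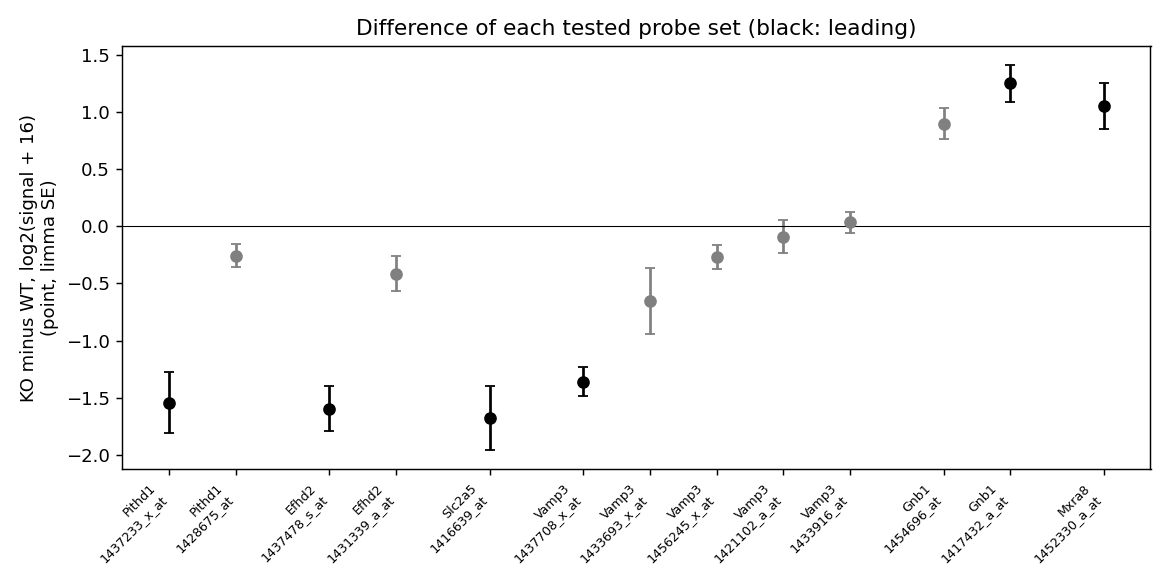
KO minus WT difference on log2(signal + 16) with its limma SE for each tested probe set of the 6 genes, the leading one in black. The Gnb1 probe sets (1.25 and 0.90) lie together, while those of Vamp3 run from -1.36 to 0.035.

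Across the genes with several tested probe sets, agreement therefore differed. The pair for Gnb1 lay 0.35 apart in the same direction, whereas the spread between the lowest and the highest tested difference was 1.18 for Efhd2, 1.29 for Pithd1 and 1.40 for Vamp3. Probe sequences and the strains' variants were not used here. From these signals a change in transcript level and a sequence difference between the groups under the probes cannot be told apart.

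The genes lie in the order Pithd1, Efhd2, Slc2a5, Vamp3, Gnb1 and Mxra8, at places 569, 632, 677, 683, 723 and 735 among the 750 tested genes of chromosome 4. Besides them, 6 genes of the chromosome had a called probe set, all 7 of those probe sets lower in KO by limma. Crocc, which encodes the ciliary rootlet protein rootletin, fell from 187 ± 42.8 in WT to 89.0 ± 12.3 in KO (SD, n = 3; difference -0.94, SE 0.17, adjusted p = 0.033). Kcnab2, a beta subunit of voltage-gated potassium channels, fell in both of its tested probe sets, from 623 ± 57.1 to 389 ± 1.12 (difference -0.65, adjusted p = 0.0061) and from 202 ± 26.1 to 101 ± 10.1 (difference -0.89, adjusted p = 0.012). Rpl22, a protein of the large ribosomal subunit, fell from 1146 ± 176 to 613 ± 136 by 1 probe set (difference -0.90, adjusted p = 0.021), while its other two gave -0.29 and -0.0086 and did not pass.

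Acot7, an acyl-CoA thioesterase, fell from 1839 ± 197 to 1321 ± 29.2 (SD, n = 3; difference -0.47, limma adjusted p = 0.028). C1qtnf12, a secreted C1q-related protein, fell from 337 ± 48.1 to 158 ± 25.7 by 1 of its 4 probe sets (difference -1.03, adjusted p = 0.0048), and the others ran from -0.26 to 0.083 without passing. Tmem68, a transmembrane protein gene at the other end of the chromosome, fell from 591 ± 25.8 to 423 ± 42.1 (difference -0.47, adjusted p = 0.049). Of these, C1qtnf12 and the first Kcnab2 probe set stayed called without any 1 mouse. The second Kcnab2 probe set was lost without KO 1 or KO 2, Crocc without KO 1, KO 2, WT 2 or WT 3, and Rpl22 without KO 2, KO 3, WT 2 or WT 3. Acot7 stayed called only without WT 3, and Tmem68 only without KO 2. Without the intensity trend in limma none of these 7 probe sets stayed called, without a filter Crocc, Rpl22, Acot7 and Tmem68 were lost, robust estimation ended the call of Rpl22, an offset of 1 that of Tmem68, and both centring on the array median and the replicate block those of Acot7 and Tmem68.

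**Figure D4:**
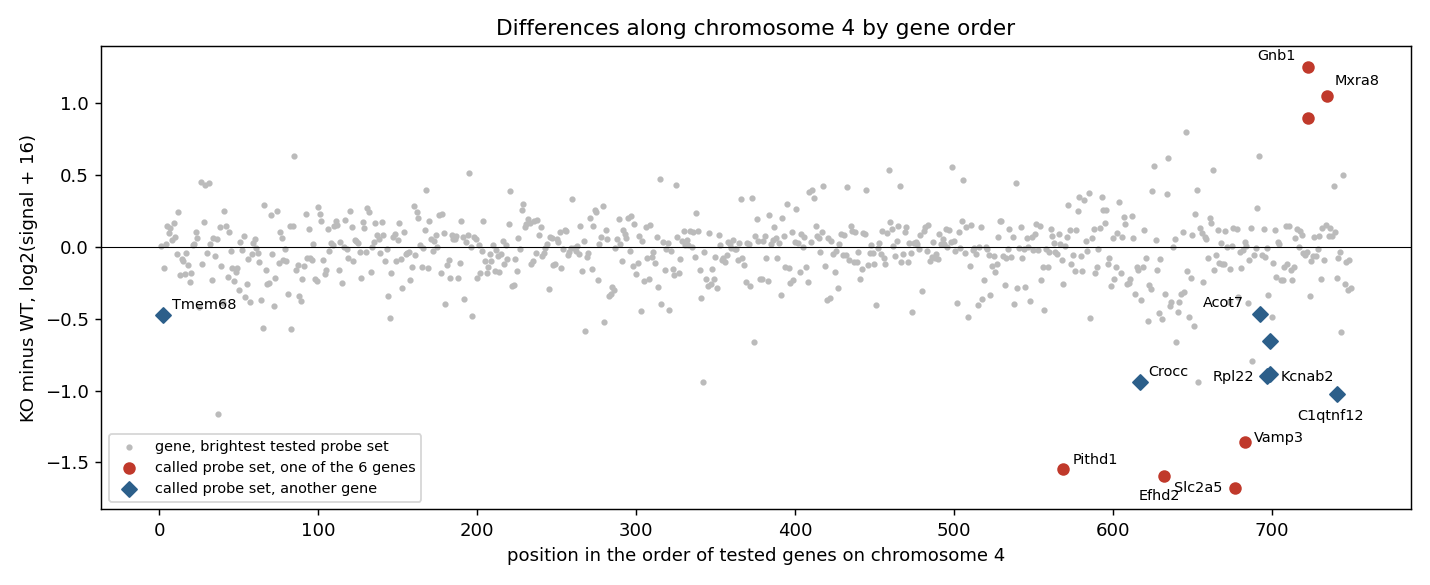
KO minus WT difference on log2(signal + 16) against position in the order of the 750 tested genes of chromosome 4, each gene by its brightest tested probe set in grey, with called probe sets of the 6 genes in red and of other genes in blue. All called probe sets but that of Tmem68 lie from position 569 on.

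Between Pithd1 and Mxra8, 4 of the 161 other tested genes had a called probe set (2.48%), against 2 of 583 on the rest of the chromosome (0.343%) and 0.675% of all tested genes. The stretch was bounded by the listed genes, which were known to differ, so these shares are a description. By their brightest tested probe set, 30.4% of the 161 genes differed by at least 0.25 in either direction, against 17.5% of the 583. The SD of the differences was 0.275 in the stretch and 0.201 outside it, with median signals of 168 and 182. The median difference was -0.055 in the stretch and -0.0097 outside. Counted over the whole chromosome, 14 of 1382 tested probe sets were called, or 1.01%, and the chromosomes with the next higher shares were 14 (1.13%) and 17 (1.14%).

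The genes right beside the 6 were compared too, as the 10 nearest tested genes on each side. The 6 genes had 96 different neighbours, of which 1, Acot7 near Vamp3, was called by its brightest tested probe set (1.04%, beside 0.446% of all genes), and 24 had an unadjusted p under 0.05 in limma (25%, beside 9.73%). Differences of 68 of the 96 were within 0.25 on the log2 scale, a lower share than the 82.7% of all genes.

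Around Gnb1, 19 of 20 neighbours were within 0.25, and they ran from -0.34 to 0.13. The nearest tested genes were Gabrd, a GABA-A receptor subunit (-0.033, SE 0.11), and Nadk, an NAD kinase (-0.34, SE 0.10, limma adjusted p = 0.25). Around Mxra8, 17 of 20 were within 0.25, the nearest being the cyclin gene Ccnl2 (0.15, SE 0.090) and Dvl1 of the Wnt pathway (0.079, SE 0.071). Gnb1 and Mxra8 have 11 tested genes between them, so part of their neighbours are the same genes. Around Pithd1, 18 of 20 were within 0.25, with Lypla2, an acyl-protein thioesterase, at -0.091 (SE 0.10) and Eloa, a transcription elongation factor, at 0.0042 (SE 0.14). One of the Mxra8 neighbours, C1qtnf12, had a called probe set that was not its brightest (-1.03). Neighbours enter by their brightest probe set, by which Pithd1 itself gives -0.26 and Gnb1 0.90.

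Around Slc2a5, 16 of 19 neighbours were within 0.25, the nearest being Spsb1 (0.13, SE 0.15) and Rere (0.12, SE 0.099). Around Vamp3, 12 of 19 were, with the clock gene Per3 at -0.020 (SE 0.13) and Camta1, a calmodulin-binding transcription activator, at 0.0057 (SE 0.14). The Vamp3 neighbours ran from -0.79 to 0.64, and 7 had an unadjusted p under 0.05 in limma, 2 higher and 5 lower in KO. Slc2a5 and Vamp3 have 5 tested genes between them, so they share many neighbours. Efhd2 stood in a stretch where more genes differed. Only 5 of its 20 neighbours were within 0.25, and 10 had an unadjusted p under 0.05 in limma, 4 higher and 6 lower in KO, although 0 were called. Casp9, the initiator caspase of the mitochondrial pathway, gave -0.50 (SE 0.19, adjusted p = 0.40) and Tmem51 -0.33 (SE 0.16, adjusted p = 0.59). The median WT signal of the Efhd2 neighbours was 94.0, against 374 around Pithd1, and what part the low signal has in their spread was not tested.

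**Figure D5:**
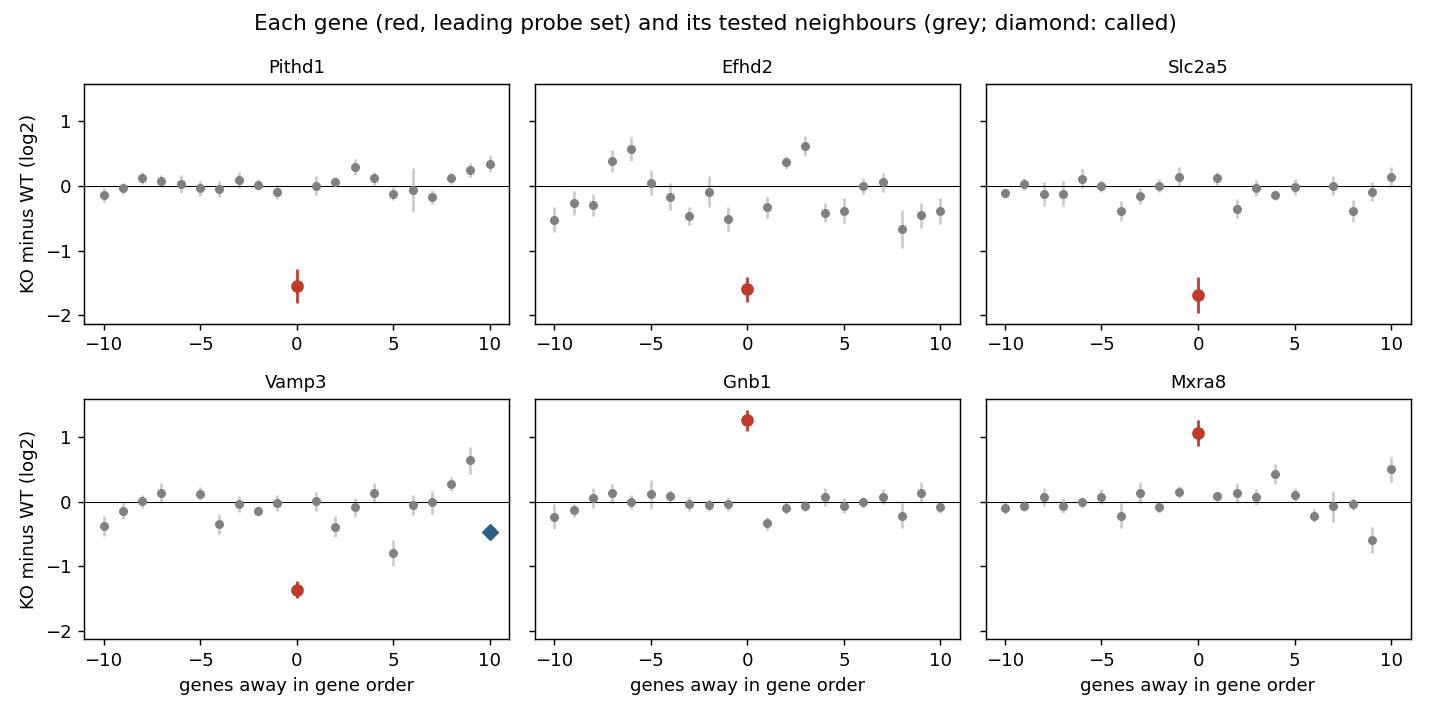
KO minus WT difference on the log2 scale with its SE for the leading probe set of each gene (red, at 0) and for up to 10 tested genes on each side (grey, by gene order; a blue diamond marks a called gene). Neighbours of Gnb1 run from -0.34 to 0.13, and those of Efhd2 from -0.66 to 0.62.

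In which WT mouse the signal came nearest to the KO mean varied along the chromosome, an observation made after the values were seen. Of the 14 called probe sets of chromosome 4, WT 1 was nearest for 8, WT 2 for 1 and WT 3 for 5, while over all 127 called probe sets the shares were 29.9%, 26.0% and 44.1%. WT 1 was nearest for Pithd1 (12.2% of the way from the mean of the other WT mice), Crocc (47.9%), Slc2a5 (24.3%), Rpl22 (38.8%), both Gnb1 probe sets, Mxra8 and C1qtnf12 (28.6%). WT 3 was nearest for Efhd2 (33.6%) and WT 2 for Vamp3 (31.7%). Gnb1 and Mxra8 were the genes for which a WT mouse came about midway or farther, and Crocc came close to that.

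Genes of the pathways of the 6 were counted by their brightest tested probe set, where 0.446% of all genes were called and 9.73% had an unadjusted p under 0.05, so 0 calls in a list of this size is near the background. Of 12 measured other G protein beta and gamma subunits, 0 were called in limma, 5 were higher and 7 lower, with a median of -0.016, and 3 had an unadjusted p under 0.05. The smallest p belonged to Gng11 (528 ± 88.9 in WT, 356 ± 67.3 in KO, SD, n = 3; difference -0.55, adjusted p = 0.15) and Gng13 (-0.22, adjusted p = 0.42). Of 11 measured alpha subunits, 0 were called (1 at an unadjusted p under 0.05, median 0.015), led by Gnas (0.18, adjusted p = 0.46) and Gna12 (-0.26, adjusted p = 0.60). Of 27 effectors and regulators of beta-gamma dimers, 0 were called (2 unadjusted, median 0.022), led by Pdcl, a phosducin-like chaperone of beta-gamma assembly (-0.32, adjusted p = 0.34), and Adcy9, an adenylyl cyclase (0.25, adjusted p = 0.47).

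Of 35 measured SNARE proteins and partners of Vamp3, 0 were called in limma (2 at an unadjusted p under 0.05), 12 were higher and 23 lower, with a median of -0.046. Gosr1, a Golgi SNARE, had a signal of 308 ± 25.9 in WT and 192 ± 39.5 in KO (SD, n = 3), which differed by -0.65 (SE 0.13, adjusted p = 0.066), and Vamp4 gave 0.17 (adjusted p = 0.46). Of 13 calcium and actin regulators related to Efhd2, 1 was called and 3 had an unadjusted p under 0.05. Dstn, or destrin, which depolymerises actin filaments, fell from 1525 ± 81.7 to 1046 ± 68.1 (difference -0.54, SE 0.077, adjusted p = 0.0080), a call that was lost without KO 1 and without the intensity trend. The list median was -0.038, with 6 higher and 7 lower.

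Of 10 measured hexose transporters and enzymes of fructose use, 0 were called in limma (1 unadjusted), 3 were higher and 7 lower, with a median of -0.072. Slc2a1, the glucose transporter of the blood-brain barrier, gave 0.30 (SE 0.12, adjusted p = 0.45) and Slc2a13, a myo-inositol transporter, 0.17 (adjusted p = 0.55). Of 12 genes taken with Pithd1, namely Txnl1 and subunits of the proteasome, 0 were called (0 unadjusted, median 0.020), with Txnl1 at 0.083 (adjusted p = 0.79) and Psmd2 at -0.086 (adjusted p = 0.80). Of 8 integrins and matrix genes set beside Mxra8, 0 were called (2 unadjusted, median -0.047), led by Itgb5 (0.29, adjusted p = 0.48) and Itgav (-0.20, adjusted p = 0.52).

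Other cell types that a striatal dissection may hold, cortical excitatory neurons among them, were followed by marker lists. Mxra8 and Vamp3 are not particular to neurons. Meningeal fibroblast markers were dim, with a summed signal of 652 to 687 in KO and 669 to 746 in WT over 7 genes and 0 called in limma (0 unadjusted). Of these genes 2 were higher and 5 lower in KO, with a median of -0.22. Endothelial and mural markers summed to 1606 to 2144 in KO and 1923 to 2136 in WT (10 genes, 0 called, 1 unadjusted). Astrocyte markers summed to 17160 to 19160 and 17870 to 18040 (10 genes, 0 called, 1 unadjusted), and those of cortical excitatory neurons to 444 to 836 and 456 to 791 (6 genes, 0 called, 0 unadjusted). Oligodendrocyte markers were lower for 8 of 9 genes (median -0.19, 0 called, 3 unadjusted), with overlapping sums of 25920 to 27430 in KO and 26510 to 32170 in WT.

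Choroid plexus markers were the only marker list whose summed signals did not overlap, 2871 to 3963 in KO and 1511 to 2477 in WT over 4 measured of 7 genes. Ttr, transthyretin, rose from 1667 ± 476 to 3106 ± 533 (SD, n = 3; difference 0.92, SE 0.17, limma adjusted p = 0.035), and Clic6 gave 0.18 (adjusted p = 0.73). Most of the sum was Ttr, since Clic6 read 235 in KO and 204 in WT, Kcnj13 41.5 and 33.3, and Sostdc1 36.7 and 26.4, none of them called. Ttr thus moves with genotype in the direction of Gnb1 and Mxra8, and its part in their values was not tested.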

How the data were processed

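The authors deposited 1 linear intensity per probe set for each array, and the submitters' processing notes name MAS5, without version or settings. Arrays had been scaled before deposit, so differences are relative to the rest of the array. Gene symbols came from the platform annotation and were updated through the RefSeq table of GRCm38.p6, which also gave chromosome and gene order. 64 control probe sets were left out. Signals were taken as log2 after adding 16, which understates changes of dim probe sets, and KO was compared with WT in limma 3.58.1 (R 4.3.3, eBayes with intensity trend) with Benjamini-Hochberg adjustment over 27022 probe sets. Genes in lists and neighbourhoods enter by their brightest tested probe set. The genes, lists and tests were chosen with earlier results of these data known. Named are all probe sets of the 6 genes, called genes of chromosome 4, the nearest tested neighbours, and for each list the called members or the 2 with the smallest p. Of the genes most alike, 3 are named for Gnb1 and for Mxra8 and 1 for each other gene. A few further members of a marker list are given as examples. The fit was tested on simulated data. The replicates are separate mice, and 3 per group limit the precision.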

Additional observations from a re-analysis of the deposited data

How the results depend on the processing

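With the replicate number as a block, 100 probe sets were called (127 without), 12 on chromosome 4 (14 without), 0 neighbours (1 without) and 2 members of the pathway lists (1 without). Same-numbered mice did not deviate together (correlations -0.0091, -0.035 and 0.017), and 1 of 6 arrays correlated best with its own number. No link between same-numbered mice was seen, but so few pairs cannot exclude one. Without a filter there were 52 calls, 6 on chromosome 4 and 0 among neighbours. Without the intensity trend there were 25, 1 (Vamp3), 0 and, in the lists, 0. A plain equal-variance test called 0. Unadjusted p values under 0.05 numbered 2247 in it and 2478 in limma. An adjusted p under 0.1 gave 194 calls and 2 in the lists, and centring arrays on their median left 0 called neighbours. Higher calls were 48 of 127, and 59 of 116 after centring. Leaving out each mouse gave 66 to 101 calls, 7 to 16 on chromosome 4 (7 without KO 1 or WT 2, 8 without KO 3 or WT 3, 9 without KO 2), 0 to 1 among neighbours and 0 to 2 in the lists. An offset of 1 moved the leading difference to -2.56 for Pithd1 and -2.71 for Slc2a5, and an offset of 64 to -0.75, -0.85 and, for Mxra8, 0.71. The brightest probe set gave -0.26 for Pithd1, 0.90 for Gnb1 and, with the sign turned, 0.035 for Vamp3. The leading differences kept their sign in 68 of 69 recomputations, that of Vamp3 being the exception, and 61 moved by less than 1 SD between mice. The groups did not overlap for any leading probe set, so leaving out a mouse, another offset or the block could not turn a sign. The filter sets both how many probe sets are adjusted together and which of them enter the limma fit. The cause of these shifts was not tested. Differences of probe sets with signals under 26.8 in KO have no firm size.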
